A study of Mus musculus with 12 samples.

Results

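The 10 transcripts described here are NONCODE long noncoding RNAs (lncRNAs) whose liver levels differ between control mice, mice given CCl4, and mice given CCl4 with silibinin or phloridzin. They were chosen by their measured values in the same comparisons, so their own differences are given as a description with no test. They are 10 of the 8658 lncRNAs with a mean of at least 0.5 FPKM (fragments per kilobase of transcript per 1e6 fragments), of 69827 lncRNAs and of 169430 transcripts in the deposited table. All 10 passed that filter, and a transcript high in a single group could pass it through that group alone.

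NONCODE is a catalogue of noncoding transcripts collected from many sources. Many of its entries lie inside coding genes, in an intron or in a long untranslated region, and others lie antisense to a gene or between genes. Reads from a nested transcript and from pre-mRNA or mRNA of its host gene cover the same bases, so an assembler divides them between the overlapping models.

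Bulk RNA of male C57/BL6N mouse livers was sequenced, with 3 livers in each of 4 groups and 12 in all. The control group is labelled WT. The model group received CCl4, a hepatotoxin that causes fibrosis, in olive oil by intraperitoneal injection over 8 weeks, with 5 mL/kg at each of 2 weekly injections. Both drug groups received the same CCl4 and, from week 5, either the plant flavonolignan silibinin or a high dose of the plant glucoside phloridzin. Ages are not given in the labels. Library sizes recovered from the values ran from 105.2 to 109.6 M fragments in the control group, from 83.7 to 101.5 M in the model group, from 106.7 to 110.9 M in the silibinin group and from 98.5 to 104.7 M in the phloridzin group. Both drug comparisons use the same 3 model livers, so a model liver that stands apart enters all 3 comparisons with the model group.

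The name given to the set, lncRNAs that follow CCl4 and drugs, holds for some of its members. Of the 10, 5 were high in every model liver and low in every other liver, 1 was low in every model liver and high in every other liver, and 1 was high in the model group with levels between model and control in both drug groups. NONMMUT039393.2 was high with silibinin alone, NONMMUT053028.2 was low in all CCl4 groups but for 1 liver, and NONMMUT002633.2 split the control livers, so the name does not hold for these 3.

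The thresholds of the fit across all transcripts (limma, adjusted p under 0.05 with an absolute log2 fold change over 1) give the background. With CCl4 alone, model against control, 313 of 8658 lncRNAs were called DE (3.62%), and 9 of the 10 members lay past the thresholds, 7 higher and 2 lower. Silibinin against model gave 106 DE lncRNAs (1.22%), with 7 members past the thresholds, 2 higher and 5 lower. Phloridzin against model gave 132 DE lncRNAs (1.52%), with 7 members past the thresholds, 1 higher and 6 lower. Between phloridzin and silibinin 1 lncRNA was DE (0.0116%), and it is a member, NONMMUT039393.2. With only the 2 groups in the fit, or without control liver 3, 2 members lay past the thresholds in that comparison. Since these contrasts chose the members, nothing is read from their counts.

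**Figure D1:**
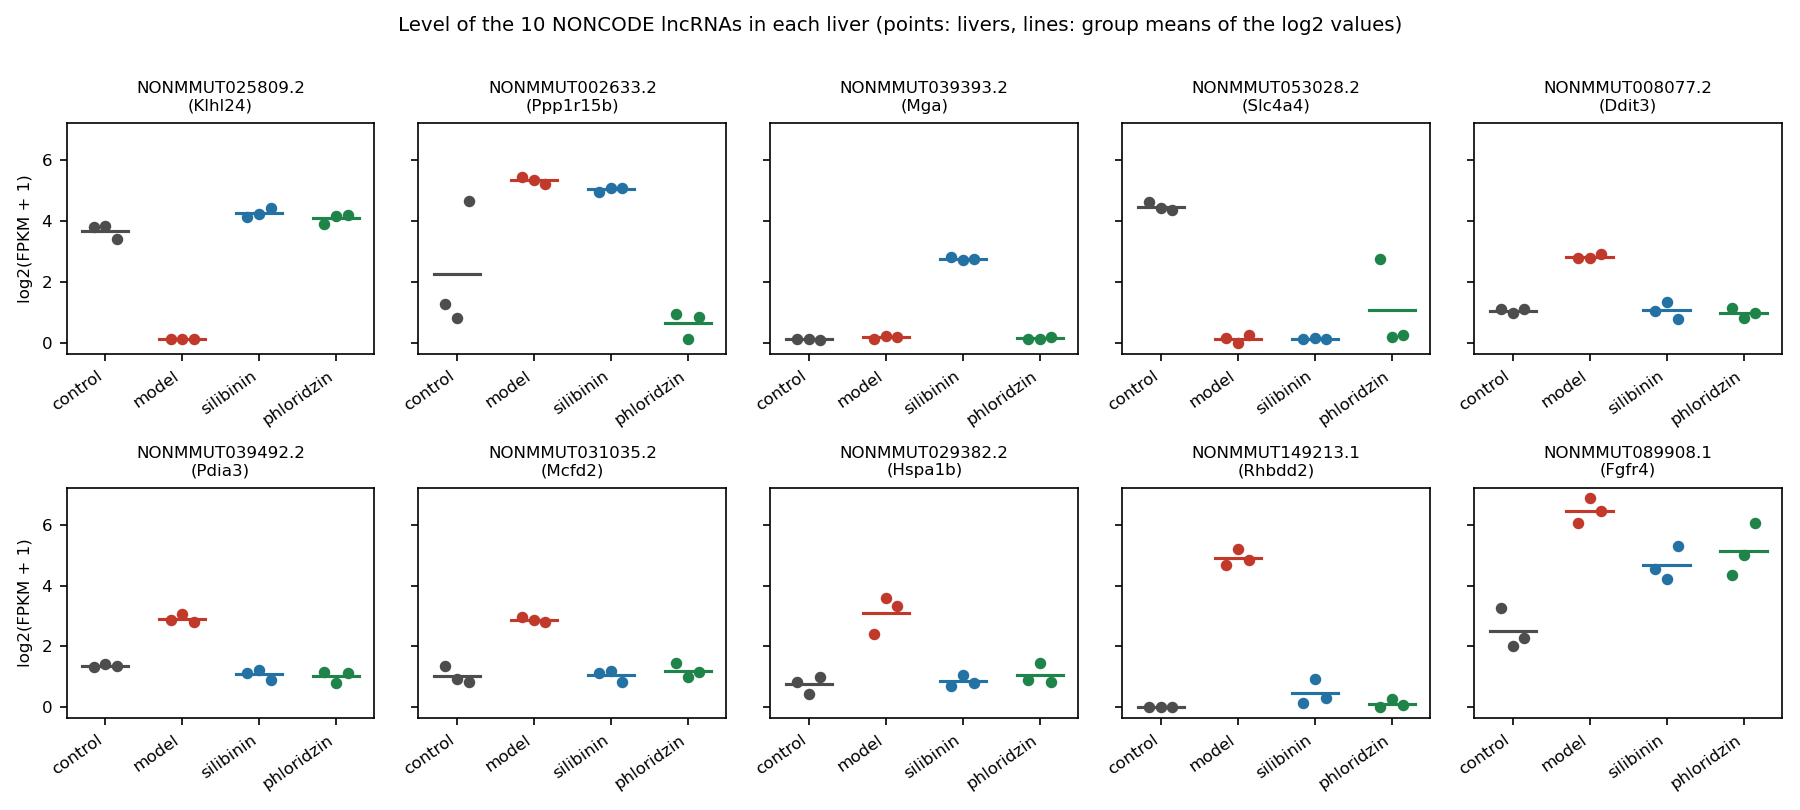
Level of each of the 10 lncRNAs in every liver as log2(FPKM + 1), by group, with the overlapping or nearest coding gene in brackets (points are livers, lines are means of the log2 values, n = 3 livers per group). NONMMUT025809.2 is low in the 3 model livers and high in the other 9, and NONMMUT002633.2 splits the control livers.

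Of the members, 4 lie on the coding strand inside the last exon of a gene, in its untranslated part. NONMMUT025809.2 (chr16:20128106-20129216, GRCm38, plus strand) lies in exon 8 of 8 of Klhl24, a gene for a kelch-like ubiquitin ligase adaptor. GENCODE carries that exon over the whole member, while the Klhl24 transcript in the deposited table ends 362 bases before it. It had 12.9, 13.3 and 9.55 FPKM in the control livers 1 to 3, 0.0968, 0.0976 and 0.108 in the model livers, 16.5, 17.8 and 20.5 in the silibinin livers and 14.0, 16.9 and 17.4 in the phloridzin livers. All 3 model livers were near 0, at 9, 11 and 12 fragments where control liver 1 had 1512, and no other liver came close to them. The group means were 11.9 ± 2.05 FPKM in controls, 0.101 ± 0.00616 in the model, 18.2 ± 2.07 with silibinin and 16.1 ± 1.85 with phloridzin (SD, n = 3). The log2 difference of FPKM + 1 was -3.54 between model and control, 4.12 between silibinin and model and 3.95 between phloridzin and model, each with an SE of 0.16. The drug groups overlapped each other and lay above the control livers.

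NONMMUT053028.2 (chr5:89238134-89239647, plus strand) lies in exon 26 of 26 of Slc4a4, which encodes a sodium bicarbonate cotransporter. Its control livers had 24.0, 20.7 and 19.5 FPKM, its model livers 0.134, 0.00651 and 0.191, its silibinin livers 0.105, 0.113 and 0.108, and its phloridzin livers 5.74, 0.139 and 0.215. The transcript was thus high in the controls and near 0 in 8 of the 9 livers given CCl4, and phloridzin liver 1 stood between. The log2 difference was -4.33 between model and control (SE 0.54), 0.0 between silibinin and model and 0.93 between phloridzin and model, where the groups overlapped. With 1 liver left out at a time the difference between phloridzin and model ran from 0.09 to 1.37.

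NONMMUT039393.2 (chr2:119965003-119966807, plus strand) lies in exon 24 of 24 of Mga, a gene for a MAX-binding transcription factor. It had 6.08, 5.58 and 5.79 FPKM in the silibinin livers. The other 9 livers had between 0.0809 FPKM in control liver 3 and 0.175 FPKM in model liver 2. All silibinin livers, with 1116 to 1170 fragments, stood above all other livers, with at most 32. The log2 difference was 2.58 between silibinin and model and -2.61 between phloridzin and silibinin (each SE 0.09), beside 0.06 between model and control.

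NONMMUT002633.2 (chr1:133138053-133139780, plus strand) lies in exon 2 of 2 of Ppp1r15b, which encodes a phosphatase subunit that acts on the translation factor eIF2. It had 1.46, 0.763 and 24.3 FPKM in the control livers, 42.3, 40.0 and 36.4 in the model livers, 30.2, 33.2 and 33.1 in the silibinin livers and 0.946, 0.105 and 0.817 in the phloridzin livers. Control liver 3 had 4592 fragments where control liver 2 had 143, so the control group was not of one level. The silibinin livers were close to the model livers and all phloridzin livers were low, with a log2 difference of -4.39 between phloridzin and silibinin (SE 0.79, over all 12 livers). Its difference between model and control was 3.08 and between phloridzin and model -4.68, with the same SE. With 1 liver left out at a time the difference between model and control ran from 2.36 to 4.28.

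A further 3 members lie near the start or in the first intron of a coding gene on its strand. NONMMUT008077.2 (chr10:127290797-127292445, plus strand) begins 23 bases after the start of Ddit3, the gene for the stress-induced transcription factor CHOP, and shares 95 exon bases with it. It also overlaps the coding gene AC144852.1, whose level stayed under the filter. It had 1.15, 0.968 and 1.18 FPKM in the control livers, 5.9, 5.92 and 6.58 in the model livers, 1.09, 1.55 and 0.749 in the silibinin livers and 1.22, 0.759 and 0.998 in the phloridzin livers. The model livers lay apart from the other 9, and the control, silibinin and phloridzin livers shared one range.

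NONMMUT039492.2 (chr2:121415023-121419443, plus strand) lies in intron 1 of Pdia3, which encodes a disulfide isomerase of the endoplasmic reticulum (ER). It had 1.51, 1.7 and 1.57 FPKM in the control livers, 6.29, 7.43 and 5.94 in the model livers, 1.17, 1.35 and 0.867 in the silibinin livers and 1.25, 0.749 and 1.18 in the phloridzin livers. Every liver of either drug group was below every control liver, and every model liver was above them.

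NONMMUT031035.2 (chr17:87261375-87263095, minus strand) lies in intron 1 of Mcfd2, whose product takes part in cargo export from the ER. It had 1.58, 0.906 and 0.785 FPKM in the control livers, 6.84, 6.24 and 5.97 in the model livers, 1.17, 1.31 and 0.802 in the silibinin livers and 1.72, 0.993 and 1.24 in the phloridzin livers. The model livers stood alone and the remaining groups overlapped, as at NONMMUT008077.2. Across these 3 members the log2 difference between model and control was 1.77 (SE 0.16), 1.54 (SE 0.15) and 1.83 (SE 0.18), in the order given. Between silibinin and model it was -1.76, -1.83 and -1.82, and between phloridzin and model -1.84, -1.88 and -1.68.

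NONMMUT029382.2 (chr17:34957619-34959819, plus strand) runs against Hspa1b, an inducible Hsp70 gene on the minus strand, and shares 1620 bases with its single exon. It had 0.782, 0.365 and 0.983 FPKM in the control livers, 4.32, 11.1 and 9.02 in the model livers, 0.626, 1.07 and 0.759 in the silibinin livers and 0.872, 1.77 and 0.78 in the phloridzin livers. All model livers were above all others, and the other groups overlapped. The log2 difference was 2.36 between model and control, -2.26 between silibinin and model and -2.04 between phloridzin and model (each SE 0.3). The library kit is not stated to keep the strand, so antisense reads cannot be told apart from reads of Hspa1b itself.

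The last 2 members overlap no coding gene. NONMMUT149213.1 (chr5:135623206-135629420, plus strand) ends 3198 bases before Rhbdd2, a gene for a rhomboid-like membrane protein. It had 0.0155, 0 and 0 FPKM in the control livers, 24.3, 35.4 and 27.5 in the model livers, 0.107, 0.889 and 0.241 in the silibinin livers and 0.004, 0.224 and 0.0539 in the phloridzin livers. The transcript was under 1 FPKM in every liver outside the model group, highest in silibinin liver 2, and the log2 difference was 4.89 between model and control, -4.43 between silibinin and model and -4.77 between phloridzin and model (each SE 0.21). With a pseudocount of 0.1 in place of 1 all 3 were larger in size.

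NONMMUT089908.1 (chr13:55186886-55188831, plus strand) lies 18127 bases after Fgfr4, a fibroblast growth factor receptor gene. It had 8.63, 3.04 and 3.86 FPKM in the control livers, 65.7, 116.0 and 85.7 in the model livers, 22.1, 17.4 and 38.4 in the silibinin livers and 19.2, 30.7 and 65.8 in the phloridzin livers. It had the highest mean of the members over the 12 livers, 39.7 FPKM, though not within the control or silibinin group, and both drug groups lay above the controls. Silibinin livers were below the model livers, while phloridzin liver 3 reached the level of model liver 1. The log2 difference was 3.93 between model and control, -1.78 between silibinin and model and -1.33 between phloridzin and model (each SE 0.48). In bulk RNA, fewer cells that carry a transcript and less of it per cell cannot be told apart, here or at any other member.

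**Figure D2:**
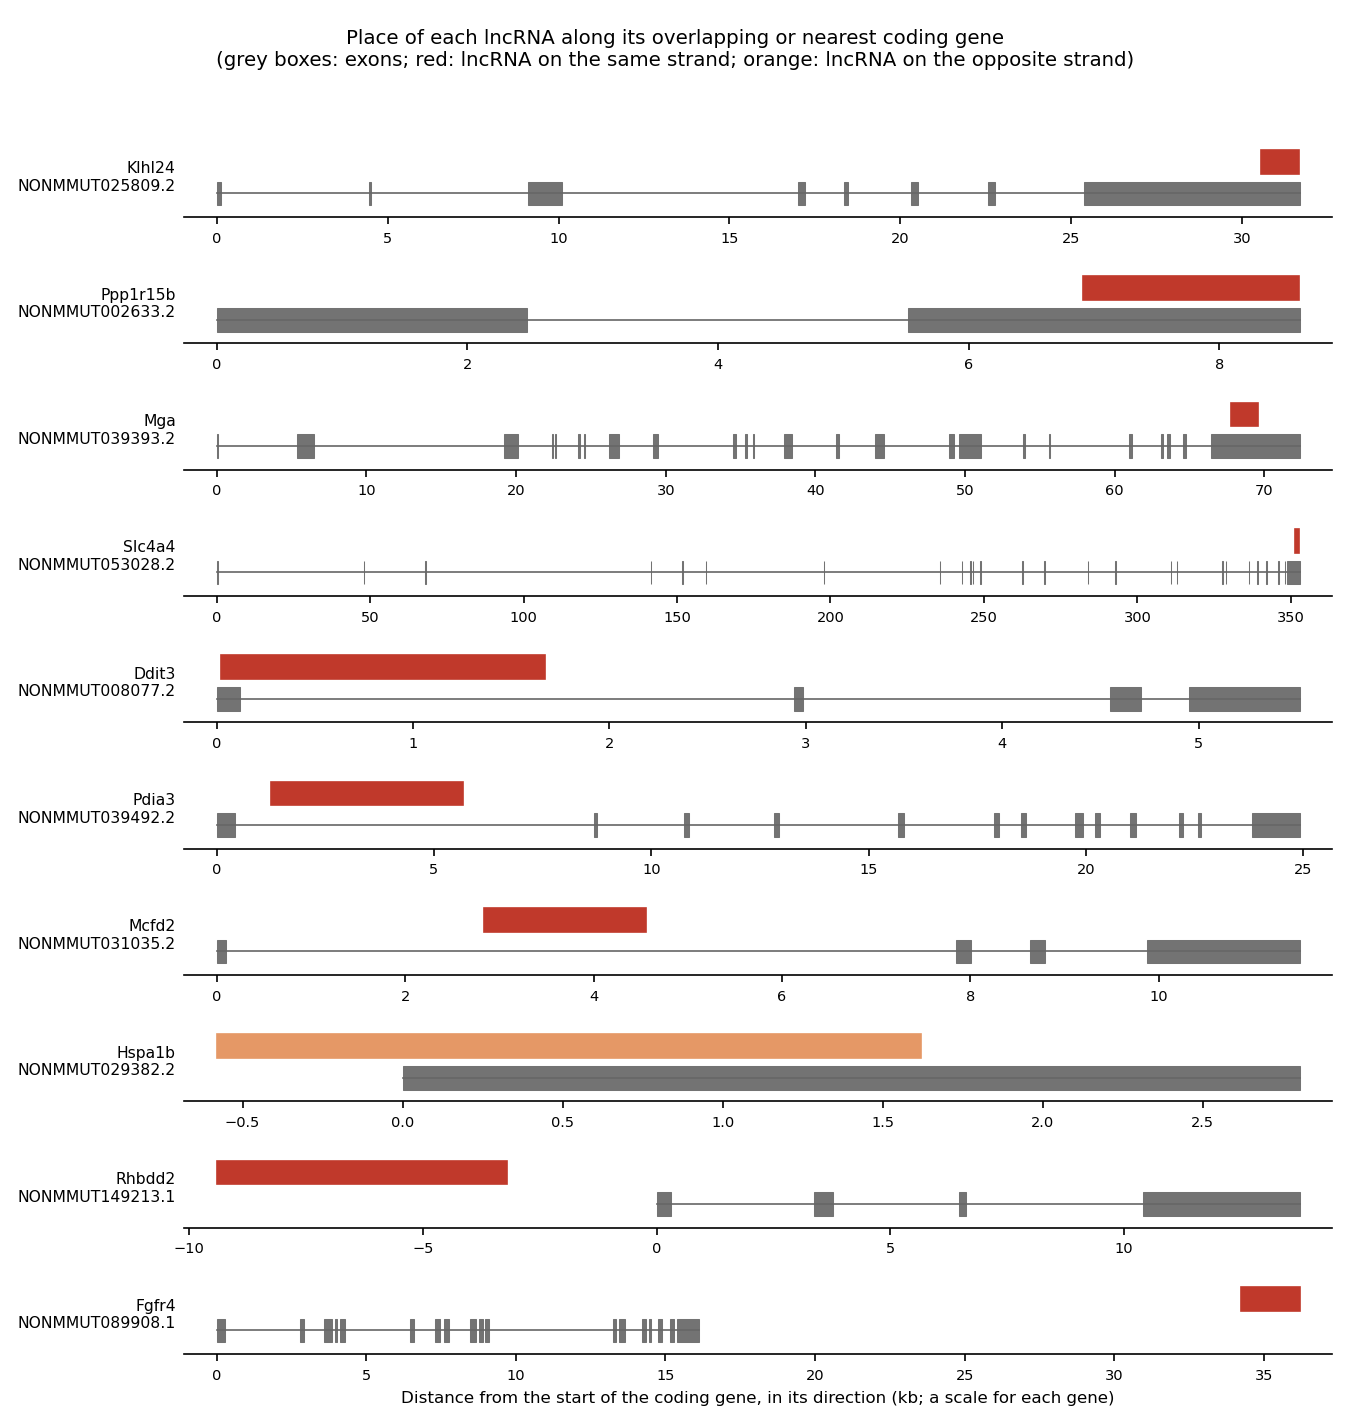
Place of each lncRNA along its overlapping or nearest coding gene, as distance in kb from the gene's start in its direction (grey boxes are exons, red is a lncRNA on the same strand, orange on the opposite strand). The 4 upper lncRNAs lie inside the last exon, and NONMMUT029382.2 covers the start of Hspa1b.

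The members were chosen by their values, and the share called differs between places, so nothing is read from their places. Of the 8658 lncRNAs tested, 950 (11.0%) lie within an untranslated exon on the same strand, and 4 members do. Of the 313 lncRNAs called between model and control, 66 lie in that class. In that class 6.95% of lncRNAs were called DE between model and control, 2.32% between silibinin and model and 2.74% between phloridzin and model. The 3794 lncRNAs within introns on the same strand hold 2 members, with 3.16%, 0.87% and 1.34% called. The 1212 that overlap exon and intron hold 1 member, the 817 that overlap a coding gene on the opposite strand alone hold 1, and the 1800 that overlap no coding gene hold 2. The span of 8 members equals the length that gives whole fragment numbers, so these were modelled as unspliced, as were 6785 of the 8508 NONCODE lncRNAs tested (79.7%). NONMMUT149213.1 and NONMMUT089908.1 are the others.

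The coding genes that overlap a member or lie nearest to it were named by position and tested over 11318 coding genes by limma with Benjamini-Hochberg adjustment. Hspa1b, Ddit3, Ppp1r15b, Mga and Slc4a4 share exon bases with a member chosen by its values, so their tests are not independent of that choice. Klhl24 shares exon bases with its member in GENCODE, though not in the deposited table, so its tests are not taken as independent either. Pdia3 and Mcfd2 hold a member in an intron on their strand, where pre-mRNA reads also fall, so the same limit holds for them. Of 11 such genes, 10 passed the filter. Between model and control 1 of the 10 was called, Hspa1b, where 9.14% of all coding genes were called and 7.95% were called higher. Between silibinin and model 2 were called lower, Pdia3 and Hspa1b, beside 3.77% of coding genes called and 2.87% called lower. The same 2 genes were called lower between phloridzin and model, beside 3.35% called and 2.56% called lower. Between phloridzin and silibinin limma called 0 of the 10 and 0 had an unadjusted p under 0.05, where 0.0265% of coding genes were called. The median log2 fold change of the 10 was 0.48, -0.41 and -0.43 in the comparisons with the model group in this order, beside 0.28, -0.11 and -0.06 over all coding genes.

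Hspa1b and its antisense member can hold the same reads, so their levels are given side by side and neither supports the other. Hspa1b had 1.85, 2.08 and 4.15 FPKM in the control livers, 26.5, 50.5 and 44.5 in the model livers, 4.35, 3.77 and 4.85 in the silibinin livers and 4.81, 8.02 and 2.25 in the phloridzin livers. The model livers were higher than all others, with a log2 fold change of 3.49 compared with control (SE 0.37, adjusted p = 0.00026, limma), higher in 3 of 3 livers. The fold change was -2.92 with silibinin (adjusted p = 0.001, limma) and -2.85 with phloridzin (adjusted p = 0.0013, limma). NONMMUT029382.2 held between 14.4 and 42.3 FPKM per 100 FPKM of Hspa1b across all 12 livers, and the 4 groups overlapped in this ratio, which shared reads could also give. Hspa1a is a near-identical copy of Hspa1b, so the division of reads between them is uncertain. It had 9.88, 0.0232 and 17.0 FPKM in the model livers and at most 1.8 in any other liver, and it was not called (adjusted p = 0.13 between model and control, limma).

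Pdia3 had 107.0 ± 12.5 FPKM in the controls, 213.0 ± 34.9 in the model, 83.8 ± 5.64 with silibinin and 82.5 ± 12.7 with phloridzin (SD, n = 3). Its log2 fold change was 0.98 between model and control (SE 0.16, adjusted p = 0.0018, limma), just short of the fold threshold. Without control liver 3 it was 1.06 and without model liver 1 it was 1.09, and Pdia3 was called in both. Its log2 fold change was -1.32 with silibinin (adjusted p = 0.00072, limma) and -1.36 with phloridzin (adjusted p = 0.00067, limma), lower in 3 of 3 livers each. The intronic NONMMUT039492.2 held 3.48, 2.97 and 2.85 FPKM per 100 FPKM of Pdia3 in the model livers and between 1.02 and 1.79 in the other 9, so the ratio was higher in the model livers than in all others.

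Ddit3 was not called, and 1 liver decided this. It had 0.0134, 24.6 and 36.3 FPKM in the model livers and at most 1.07 FPKM, in phloridzin liver 2, elsewhere. The log2 fold change was 3.07 between model and control (SE 1.06, adjusted p = 0.055, limma), -2.93 between silibinin and model (adjusted p = 0.11, limma) and -2.87 between phloridzin and model (adjusted p = 0.12, limma). Without model liver 1 it was 4.72, -4.58 and -4.52, with adjusted p = 5.2e-05, 9.0e-05 and 0.0001 (limma). Model liver 1 was not low at this place in other transcripts. NONMMUT008077.2 had 5.9 FPKM there, and ENSMUST00000134686, a noncoding transcript of Ddit3 that spans the member, had 4.56, 6.5 and 5.67 FPKM in the model livers and between 0.52 and 1.41 in the others. The cause of the low Ddit3 value in that liver was not tested.

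The promoters of Ddit3 and Hspa1b are shown because NONMMUT008077.2 begins beside the first and NONMMUT029382.2 covers all 250 bases of the second. Each is the 250 bases before the gene's start (RefSeq, GRCm38.p6), at chr10:127290543-127290792 on the plus strand for Ddit3 and at chr17:34959239-34959488 on the minus strand for Hspa1b. Capitals mark a match to TGANTCA, the AP-1 motif, 242 to 236 bases before the start of Ddit3, and a match to GAANNTTC, a heat shock element, 104 to 97 bases before the start of Hspa1b. Both matches read the same motif on either strand, and neither overlaps another motif searched.
Ddit3 promoter: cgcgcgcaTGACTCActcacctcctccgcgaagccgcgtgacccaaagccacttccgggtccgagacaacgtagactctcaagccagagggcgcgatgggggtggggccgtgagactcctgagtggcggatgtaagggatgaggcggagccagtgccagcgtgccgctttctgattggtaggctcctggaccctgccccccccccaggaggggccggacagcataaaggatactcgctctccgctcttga
Hspa1b promoter: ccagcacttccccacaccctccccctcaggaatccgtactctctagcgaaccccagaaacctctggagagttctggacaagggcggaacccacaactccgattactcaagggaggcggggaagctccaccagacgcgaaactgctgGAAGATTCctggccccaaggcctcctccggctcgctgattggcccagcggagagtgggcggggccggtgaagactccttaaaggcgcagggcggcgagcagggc

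Of the 11 coding genes, 8 were in the promoter table, with 9 promoters. Klhl24, Ppp1r15b and AC144852.1 were not. The motifs searched on both strands were TGANTCA (AP-1), TGATGNAA (the CARE of amino acid stress genes), GAANNTTC (heat shock element), TGACNNNGC (antioxidant response element) and CAAAGTCCA (HNF4A). The Mga promoter held a heat shock element and an antioxidant response element, the Pdia3 promoter held an antioxidant response element, and those of Rhbdd2, Mcfd2, Slc4a4 and Fgfr4 held none of these. Of 32851 mouse promoters, 6.75% hold the AP-1 letters in the same 250 bases, 3.45% the CARE, 6.69% the heat shock element, 10.2% the antioxidant response element and 0.384% the HNF4A letters. A match describes the letters and not a bound factor.

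The other host genes were not called. Slc4a4 had 23.1 ± 4.43 FPKM in the controls and 12.3 ± 1.27 in the model (SD, n = 3), a log2 fold change of -0.85 (adjusted p = 0.0036, limma). It had 21.2 ± 2.72 with silibinin (0.74, adjusted p = 0.015, limma) and 19.2 ± 2.2 with phloridzin (0.6, adjusted p = 0.039, limma). With median-ratio scaling its difference between model and control was -1.3 (adjusted p = 0.0023, limma), which is past both thresholds. Host and nested member differed most clearly with silibinin, where Slc4a4 was near the control level and NONMMUT053028.2 at 0.109 ± 0.00404 FPKM (SD, n = 3), a difference that was not tested. Klhl24 had 1.13 ± 0.297 FPKM in the controls, 0.867 ± 0.33 in the model, 1.99 ± 0.486 with silibinin and 1.9 ± 0.434 with phloridzin (SD, n = 3), and the member in its last exon exceeded it in every liver outside the model group. Klhl24's change with silibinin was 0.69 (adjusted p = 0.043, limma), under the fold threshold.

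Ppp1r15b lay between 15.9 and 25.5 FPKM in all 12 livers while NONMMUT002633.2 in its last exon ranged from 0.105 to 42.3. Mga lay between 0.537 and 3.82 FPKM with overlapping groups, and its silibinin livers, where the member was high, had 1.38, 1.07 and 1.22. Mga reached a log2 fold change of 1.0 between model and control and -1.03 between phloridzin and model without model liver 3, and was then called. Mcfd2 had 32.8 ± 8.46 FPKM in the model and 15.3 ± 4.18 in the controls (SD, n = 3), with a log2 fold change of 1.06 (adjusted p = 0.16, limma). A single coding transcript of Mcfd2, ENSMUST00000144236, had 18.3, 15.1 and 23.8 FPKM in the model livers and at most 5.53 elsewhere. It was called at 2.62 (adjusted p = 0.019), -2.77 (adjusted p = 0.029) and -3.17 (adjusted p = 0.017, limma over mRNAs) in the comparisons of model with control, silibinin with model and phloridzin with model. ENSMUST00000024963, another coding transcript of the gene, ran the other way without being called, with 9.04 ± 3.78 FPKM in the controls, 5.54 ± 1.3 in the model, 11.2 ± 8.44 with silibinin and 16.9 ± 13.2 with phloridzin (SD, n = 3). Its log2 fold changes were -0.56, 0.69 and 1.22, and those of ENSMUST00000151155, also not called, were 0.9, -1.36 and -0.8. Rhbdd2 and Fgfr4, nearest to the members outside genes, had log2 fold changes of -0.28 and 0.28 between model and control and were not called.

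**Figure D3:**
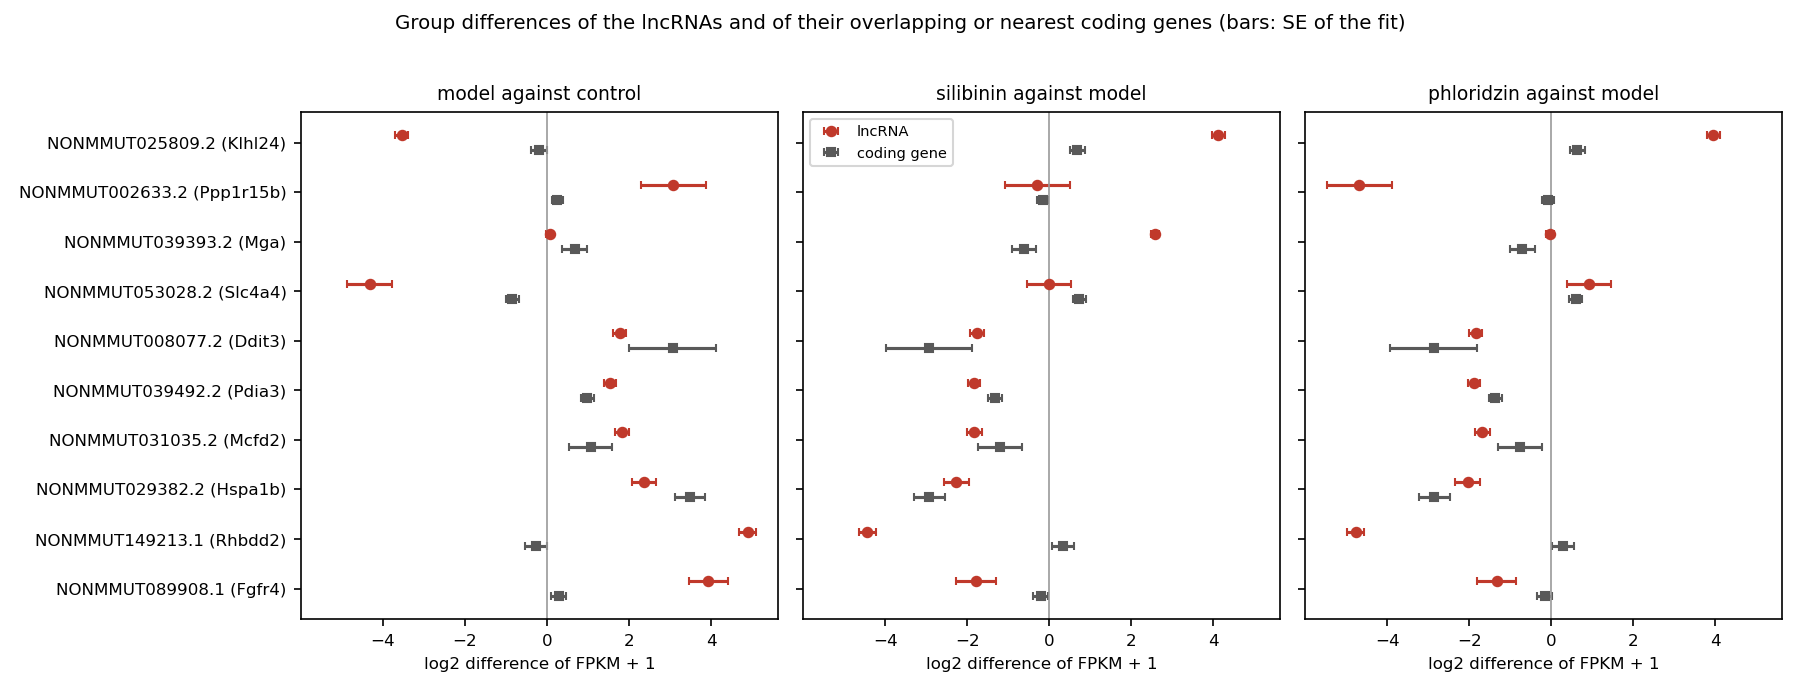
Log2 difference of FPKM + 1 for each lncRNA (red circles) and its overlapping or nearest coding gene (grey squares) in the 3 comparisons with the model group (bars are SE of the fit, n = 3 livers per group). Hspa1b, which can share reads with NONMMUT029382.2, lies on its side of 0, while Ppp1r15b lies near 0 beside NONMMUT002633.2.

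Within 100 kb of a member lie 63 coding genes, of which 48 were tested. Between model and control limma called 4 of them, where 9.14% of all coding genes were called. These were Hspa1b with Vars (1.22) and Clic1 (1.1) higher and Neu1 (-1.3) lower. Between silibinin and model it called 3, beside 3.77% of all, with Pdia3 and Hspa1b lower and Neu1 (1.41) higher. Between phloridzin and model it called 4, beside 3.35% of all, those 3 with Inhbe (-1.44) lower. Between phloridzin and silibinin it called 0, and 1 gene, Inhbe, had an unadjusted p under 0.05. Vars, Clic1, Neu1 and Inhbe are named after their values were seen. Neu1, the lysosomal sialidase gene near Hspa1b, had 1.66, 2.08 and 8.52 FPKM in the model livers and between 8.75 and 11.0 in the others, so its model livers were not of one level. The median of the 48 genes was 0.3, -0.25 and -0.15, beside 0.28, -0.11 and -0.06 over all coding genes.

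Of lncRNAs called higher in the model, 209 overlap a tested coding gene, and the gene was called higher for 71 of them (34.0%), beside 7.95% of all coding genes. A host can hold the reads of the lncRNA inside it. For those called lower in the model it was 6 of 28 (21.4%), beside 134 of 11318 coding genes. With silibinin it was 14 of 58 called lower (24.1%, beside 2.87% of all coding genes). For those called higher with silibinin it was 6 of 14 (42.9%), beside 102 of 11318 coding genes. With phloridzin it was 16 of 78 called lower (20.5%, beside 2.56%) and 2 of 18 called higher (11.1%, beside 89 of 11318).

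Other lncRNAs at the place of a member were then compared with it. Those in the same host exon were chosen after the members' values were seen. In the last exon of Klhl24, NONMMUT025808.2 had 7.56, 9.32 and 5.58 FPKM in the controls, 5.59, 4.83 and 6.26 in the model, 15.1, 15.2 and 15.4 with silibinin and 10.9, 13.4 and 13.1 with phloridzin. It was thus present in the model livers where NONMMUT025809.2 was near 0, with a log2 fold change of -0.35 between model and control (adjusted p = 0.15, limma). It was called higher with silibinin (1.31, adjusted p = 0.0069, limma) and with phloridzin (1.04, adjusted p = 0.014, limma). NONMMUT025804.2 in that exon had 9.62, 9.7 and 0.00425 FPKM in the controls and between 5.66 and 15.0 in all other livers. The control group of this transcript was therefore split by control liver 3.

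In the last exon of Mga, NONMMUT039394.2 had 2.49, 0.043 and 2.47 FPKM with silibinin, 0.0488, 0.0372 and 2.0 in the controls, 0.0877, 0.0361 and 3.78 in the model and 0.0431, 2.17 and 2.08 with phloridzin. It was present in some livers of each group and near 0 in the others, unlike NONMMUT039393.2 beside it. In the last exon of Slc4a4, NONMMUT053026.2 shares 650 bases with NONMMUT053028.2. It had 40.8, 24.7 and 31.2 FPKM in the controls, 4.07, 25.4 and 0.178 in the model, 21.5, 16.8 and 15.7 with silibinin and 16.6, 13.6 and 0.22 with phloridzin. The silibinin livers thus held the overlapping transcript while the member was near 0 in them. The sum of both was 64.7, 45.3 and 50.6 FPKM in the controls, 4.21, 25.4 and 0.37 in the model, 21.6, 16.9 and 15.9 with silibinin and 22.3, 13.7 and 0.434 with phloridzin, so all control livers stood above all others.

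NONMMUT149212.1 shares 5757 bases with NONMMUT149213.1 on the same strand, and its pattern ran the other way. Reads are divided between them, so its tests are not independent of the choice of the member. It had 3.14, 2.26 and 2.61 FPKM in the controls, 0.0113, 0.00775 and 0.00785 in the model, 1.43, 0.966 and 12.6 with silibinin and 13.0, 7.57 and 12.5 with phloridzin. It was called lower in the model than in the controls (-1.86, adjusted p = 0.044, limma) and higher with phloridzin than in the model (3.54, adjusted p = 0.014, limma). Between silibinin and model it was not called (1.99, adjusted p = 0.095, limma). The sum of both was 2.67 ± 0.449 FPKM in the controls, 29.1 ± 5.7 in the model, 5.4 ± 6.41 with silibinin and 11.1 ± 2.88 with phloridzin (SD, n = 3). In the sum the model livers remained the highest, while silibinin liver 3 and the phloridzin livers held 7.79 to 13.0 FPKM where the member alone held at most 0.241.

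**Figure D4:**
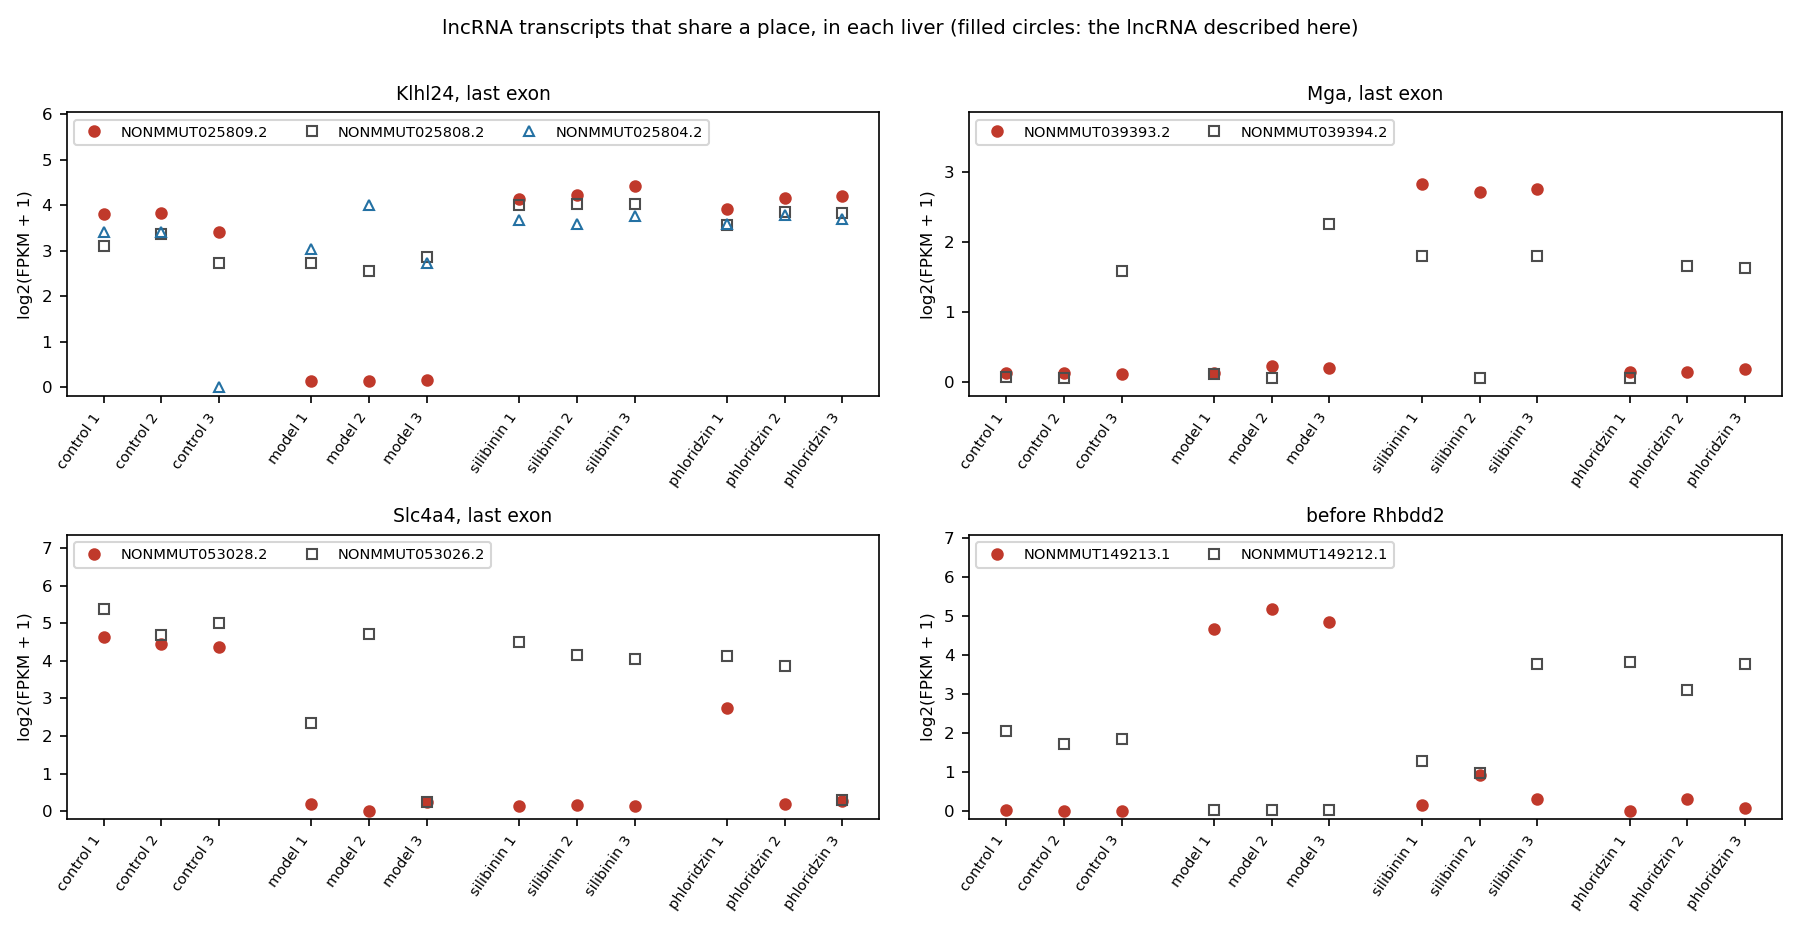
Level as log2(FPKM + 1) in every liver of 4 members (filled red circles) and of other lncRNAs in the same host exon or place (open squares and triangles). NONMMUT149212.1 is near 0 in the model livers where NONMMUT149213.1 is at 24.3 to 35.4 FPKM.

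At the place of NONMMUT089908.1 lie 3 other lncRNAs that share 911, 824 and 1946 bases with it. They can hold its reads, so their tests are not independent of the choice of the member. NONMMUT089907.1 on the same strand had 34.9 ± 12.5 FPKM in the model and 5.13 ± 3.74 in the controls (SD, n = 3), and was called at 2.78 (adjusted p = 0.022, limma). NONMMUT091482.1 and NONMMUT142785.1 on the opposite strand were called at 2.29 (adjusted p = 0.0063, limma) and 1.04 (adjusted p = 0.014, limma). None of the 3 was called in the comparisons of silibinin or phloridzin with the model (limma), where their log2 fold changes ran from -2.16 to -0.52.

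A spread of more than 10-fold within a group whose highest liver has at least 1 FPKM, a measure chosen after the values were seen, was found in 2 of the 10 members, NONMMUT002633.2 and NONMMUT053028.2. It was found in 1122 of 8658 lncRNAs (13.0%), in 26.8% of mRNAs and in 10.7% of coding genes with their transcripts summed.

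Gene lists for stress pathways and liver cell types were followed beside the members, since Ddit3 belongs to the integrated stress response, Pdia3 to ER folding and Hspa1b to the heat shock genes. The lists were chosen with earlier results of these data known, so their counts and sums are a description and lend the members no support. Of 12 integrated stress response genes, 9 were called higher in the model than in the controls, 9 lower with silibinin and 9 lower with phloridzin (limma). Of all coding genes 7.95% were called higher in the model, 2.87% lower with silibinin and 2.56% lower with phloridzin. Asns (-1.19) lost its call with silibinin when any 1 of the 6 livers compared was left out. The summed level of the list was 21.3, 17.1 and 23.6 FPKM in the controls, 157.0, 182.0 and 248.0 in the model, 24.6, 22.5 and 25.1 with silibinin and 32.8, 23.8 and 24.3 with phloridzin. Trib3 was the most abundant, and Atf3 changed by 5.12 between model and control (adjusted p = 3.3e-06) and by -4.03 and -3.93 with silibinin and phloridzin (adjusted p = 2.0e-05 and 2.7e-05, limma). The model livers thus stood apart in the sum, as at NONMMUT008077.2. The phloridzin sums all lay above the control sums, whereas the member's control and phloridzin livers overlapped.

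Of 12 ER chaperone genes, 8 were called higher in the model, 11 lower with silibinin and 11 lower with phloridzin (limma). Of all coding genes 7.95%, 2.87% and 2.56% were called in these directions. With median-ratio scaling Hsp90b1 and Pdia6 lost the call between model and control. The ER chaperone genes summed to 730.0, 842.0 and 840.0 FPKM in the controls, 1770.0, 2260.0 and 2020.0 in the model, 563.0, 550.0 and 496.0 with silibinin and 579.0, 508.0 and 516.0 with phloridzin. The drug groups were below the controls, as at NONMMUT039492.2. Hsp90b1 was the most abundant, and Hspa5, the ER Hsp70, changed by 1.79, -2.7 and -2.65 in the 3 comparisons (adjusted p = 0.00015, 2.0e-05 and 2.7e-05, limma). Of 8 heat shock genes, 5 were called higher in the model, 5 lower with silibinin and 3 lower with phloridzin (limma), Hspa1b among them. Hsp90aa1 (1.2 between model and control, -1.47 between silibinin and model) lost its call in each of these comparisons in 5 of the 12 fits that left out 1 liver. Dnajb1 (-1.04 between silibinin and model) lost its call there in 3 of the 12. With median-ratio scaling Dnajb1 also lost a call, as did Hsp90aa1 between model and control. The heat shock genes summed to 58.9 ± 2.4 FPKM in the controls, 297.0 ± 46.9 in the model, 51.1 ± 6.22 with silibinin and 73.7 ± 23.0 with phloridzin (SD, n = 3).

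**Figure D5:**
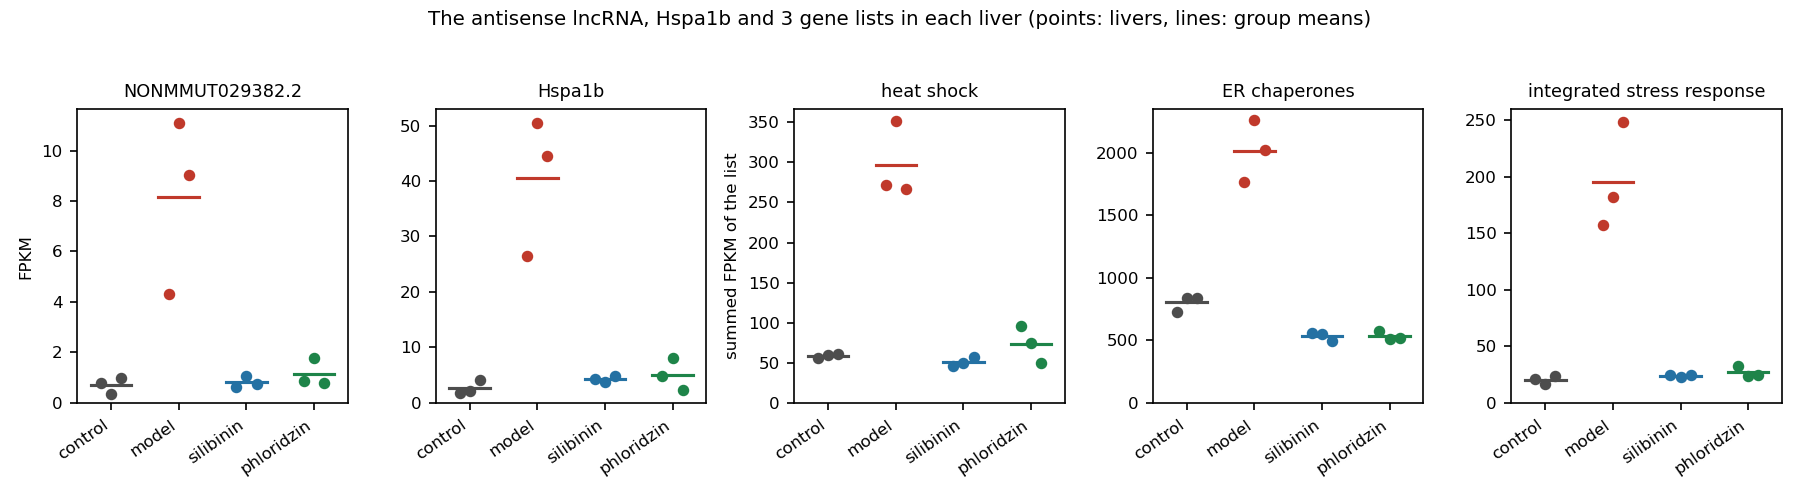
FPKM of NONMMUT029382.2 and of Hspa1b, and summed FPKM of the heat shock, ER chaperone and integrated stress response lists, in each liver by group (points are livers, lines are group means, n = 3). The 3 model livers are above the other 9 in each of the panels.

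Of the 4 comparisons tested, cell type markers passed the thresholds in that of model with control. The drug groups were not tested against the controls. Among all coding genes 7.95% were called higher in the model than in the controls. Of 12 stellate cell and myofibroblast genes 6 were called higher in the model, among them Col1a1 (4.41, adjusted p = 0.0006, limma). They summed to 39.4, 29.1 and 35.6 FPKM in the controls, 180.0, 160.0 and 201.0 in the model, 181.0, 193.0 and 92.2 with silibinin and 263.0, 129.0 and 95.5 with phloridzin, with Col3a1 the most abundant. The groups given CCl4 overlapped in this sum. Of 9 macrophage genes tested 3 were higher in the model, Trem2, Gpnmb and Lyz2, the last the most abundant. Macrophage genes summed to 129.0, 231.0 and 184.0 FPKM in the controls, 361.0, 581.0 and 494.0 in the model, 441.0, 551.0 and 427.0 with silibinin and 692.0, 677.0 and 359.0 with phloridzin, with Cd68 below the filter.

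Of 3 cholangiocyte genes tested 1 was called higher, Spp1 (1.94, adjusted p = 0.0057, limma), and of 12 hepatocyte genes 1 was called lower, Cyp2e1 (-2.34, adjusted p = 0.0027, limma). Among all coding genes 7.95% were called higher and 134 of 11318 lower. Cholangiocyte genes summed to 11.3, 12.9 and 16.5 FPKM in the controls, 46.0, 55.5 and 49.9 in the model, 47.4, 48.7 and 23.9 with silibinin and 52.4, 26.7 and 25.4 with phloridzin, most of it Spp1, with Krt7 and Epcam below the filter. Between model and control limma called 0 of 7 endothelial genes, 0 of 3 erythroid genes and 0 of 1 lymphocyte gene, beside 9.14% of all coding genes. In these lists, in order, 0, 1 and 1 genes had an unadjusted p under 0.05. Of the 47 cell type genes tested, limma called 0 between silibinin and model and 0 between phloridzin and model, where 6 and 7 had an unadjusted p under 0.05. Among all coding genes it called 3.77% and 3.35% there. Between phloridzin and silibinin it called 0 of the 79 genes of all lists, beside 0.0265% of all coding genes. Of the 79, 4 had an unadjusted p under 0.05. Alb led a hepatocyte sum that ran from 19400.0 FPKM in model liver 1 to 40100.0 in silibinin liver 2. The part of cell composition in the members' levels was not tested.

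Likeness of pattern was measured over 9916 coding genes with a mean of at least 1 FPKM, as Pearson's r of log2(FPKM + 1) over the 12 livers. The livers fall into 4 groups, so r mostly repeats the group pattern, and it is a description with no p. The 2 most like genes had r from 0.944 to 0.993 for 8 members, and r was lower for NONMMUT002633.2 and NONMMUT039393.2. NONMMUT149213.1 was most like Cep170b (r 0.993, Spearman's rho 0.865) and Sprr1a (r 0.992, rho 0.692), a squamous envelope gene at 0 FPKM in all control livers and at 33.8, 58.9 and 28.4 in the model livers. NONMMUT029382.2 was most like Dnajb1 (r 0.985, rho 0.909), a heat shock cochaperone gene, and Ehd1 (r 0.976, rho 0.804). NONMMUT039492.2 was most like Wfs1 (r 0.992, rho 0.923), which encodes an ER membrane protein, and Srpr (r 0.987, rho 0.902), a subunit of the signal recognition particle receptor.

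NONMMUT008077.2 was most like Zfp9 (r 0.988) and Entpd7 (r 0.986), NONMMUT031035.2 like Tes (r 0.984) and Sdad1 (r 0.983), and NONMMUT025809.2 like Mthfd1 (r 0.981) and Lgr4 (r 0.974). Mthfd1, a folate cycle enzyme gene, had 58.0 ± 1.42 FPKM in the controls, 30.8 ± 3.31 in the model, 63.4 ± 4.27 with silibinin and 60.6 ± 1.24 with phloridzin (SD, n = 3). NONMMUT053028.2 was most like Mup2 (r 0.953), a major urinary protein gene, and Fitm1 (r 0.944). Mup2 had 448.0, 243.0 and 635.0 FPKM in the controls and at most 4.02 in any liver given CCl4. NONMMUT053028.2 had at most 0.215 FPKM in the same livers but for phloridzin liver 1, at 5.74. NONMMUT089908.1 was most like Pbx3 (r 0.953) and Sntb2 (r 0.945). For NONMMUT002633.2 they were Zmiz1 (r 0.877) and Bri3bp (r 0.857), and for NONMMUT039393.2 Zfp784 (r 0.827, rho 0.615) was among them.

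The balance of directions depends on scaling. Of DE lncRNAs between model and control 83.4% were higher, and of DE coding genes 87.0%. With FPKM divided by median-ratio size factors, these were 51.7% and 44.5%. Between silibinin and model 27.4% of DE lncRNAs and 23.9% of DE coding genes were higher, which became 46.7% and 47.5%. Between phloridzin and model 19.7% and 23.5% were higher, which became 43.2% and 51.4%. The median log2 difference over all coding genes moved from 0.28 to -0.06 between model and control, from -0.11 to 0.05 between silibinin and model, and from -0.06 to 0.11 between phloridzin and model, and that of lncRNAs from 0.34 to 0.1, from -0.17 to -0.05 and from -0.22 to -0.09.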

How the data were processed

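The authors deposited FPKM per transcript and liver, made with bcl2fastq, FastQC 0.11.5, HISAT2 2.1.0 and StringTie 1.3.3b on mm10, with DESeq 1.28.0 for their own tests. Positions follow GENCODE M21 (GRCm38). Transcripts with a mean of at least 0.5 FPKM were fitted by limma 3.58.1 as log2(FPKM + 1), letting the variance follow the mean level, all 12 livers in one fit, in R 4.3.3 with the package data.table (1.17.8). Coding transcripts were summed per gene. The p-values are two-sided and adjusted by Benjamini-Hochberg within lncRNAs, within mRNAs or over coding genes. Tables and plots used matplotlib 3.10.9, scipy 1.17.1, pandas 2.3.3 and numpy 2.4.6 under Python 3.11.15. Fragment numbers were recovered from FPKM, length and library size, whole within 0.1 fragments.

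Named by rule were the members, their overlapping or nearest coding genes, up to 3 overlapping transcripts each, up to 2 of the coding genes most like each member, and called genes of the lists (integrated stress response, ER chaperones, heat shock, hepatocyte, stellate cell, macrophage, endothelium, cholangiocyte, lymphocyte, erythroid). Members and lists were chosen with earlier results of these data known. Motifs were searched in promoters of the coding genes, since sequence at the lncRNA starts was not at hand as a set. The Ddit3 promoter ends just before the start of NONMMUT008077.2.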

Additional observations from a re-analysis of the deposited data

How the results depend on the processing

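Counts of DE lncRNAs depended on the pseudocount, the fold threshold, the filter, the scaling, the test and the groups in the fit. Between model and control, 313 became 1592 with a pseudocount of 0.1, 770 with 0.5, 178 with median-ratio scaling, 1303 with voom on recovered fragments and 2221 with no fold threshold. Voom was run on transcripts with recovered fragments alone, so NONMMUT149213.1 and NONMMUT089908.1 were not in it. Of the 313 lncRNAs, 211 were among those called with voom. With median-ratio scaling 8334 lncRNAs passed the filter in place of 8658. Between silibinin and model, 106 became 67 with no filter, 169 with a pseudocount of 0.5, 24 with only the 2 groups in the fit and 316 with no fold threshold. Between phloridzin and model, 132 became 70 with no filter, 230 and 227 with pseudocounts of 0.1 and 0.5, 81 with median-ratio scaling, 26 with only the 2 groups, 258 with voom and 473 with no fold threshold. Between phloridzin and silibinin, 1 became 2 with a pseudocount of 0.1 and 4 with only the 2 groups. Fitting only the 2 groups leaves fewer livers, and dropping a threshold adds calls by construction. The cause of the other changes was not tested.

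Overlapping or nearest coding genes called between model and control went from 1 to 2 with median-ratio scaling, 2 with only the 2 groups and 3 with no fold threshold, and those between silibinin and model from 2 to 4 with no fold threshold. Within 100 kb, 4 genes between model and control became 8 with a pseudocount of 0.1 and 16 with no fold threshold, 3 between silibinin and model became 5 and 6, and 4 between phloridzin and model became 2 with only the 2 groups and 8 with no fold threshold. The cause was not tested.

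With 1 liver left out at a time, DE lncRNAs ran from 220 to 434 between model and control, 59 to 135 between silibinin and model, 36 to 195 between phloridzin and model and 1 to 5 between phloridzin and silibinin. Silibinin against model fell to 70 without model liver 1 and to 65, 66 and 59 without silibinin livers 1, 2 and 3. Phloridzin against model fell to 58 and 87 without model livers 1 and 2 and to 36 without phloridzin liver 2. Overlapping or nearest coding genes called between model and control ran from 1 to 3, at 3 without model liver 1 and 2 without control liver 3 or model liver 3.

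With median-ratio scaling the sign turned for Ppp1r15b (-0.21 between model and control, 0.06 with silibinin, 0.15 with phloridzin, against model) and Fgfr4 (-0.17 between model and control, 0.07 between phloridzin and model). None of these was called. The size factors were 1.31, 1.16 and 1.18 in the model livers and between 0.8 and 1.11 in the other livers. A factor divides every value of its liver, so this scaling lowers the model group against the other groups by construction. Left-out livers turned the sign between phloridzin and model for Rhbdd2 (-0.02 to 0.55), Ppp1r15b (-0.24 to 0.02) and Fgfr4 (-0.31 to 0.03).

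Among named coding genes, 18 values called before lost the call with median-ratio scaling, all in the same direction: Asns, Dnajb1 and, between model and control, Hsp90b1, Pdia6, Hsp90aa1 and Tagln of the lists, and the like genes Entpd7, Wfs1, Sdad1, Zmiz1, Sntb2 and Srpr. Leaving out 1 liver lost a call in 30 cases, for Hsp90aa1, Asns, Dnajb1, Tagln, Zmiz1, Sntb2, Sdad1 and Mthfd1. Of the 40 log2 differences of the members, 26 moved by more than the spread between livers with a pseudocount of 0.1, 21 with 0.5 and 11 with median-ratio scaling. A smaller pseudocount widens log2 distances by construction, most at low levels, and scaling shifts all values of a liver by its factor. The cause of the calls lost without 1 liver was not tested.

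Replicate numbers were not found to pair livers across groups, as r was between -0.07 and 0.03 in 18 same-numbered pairs. With a replicate block, DE lncRNAs were 308, 95, 119 and 1, overlapping or nearest genes 1, 2, 2 and 0, and genes within 100 kb 4, 2, 3 and 0 in the 4 comparisons.

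With 3 livers per group, the division of reads between overlapping models limits what the levels of nested transcripts show. No alignment was at hand, so that division was not tested. Strand was not known, and FPKM carries no correction for library composition. Libraries held 83.7 to 110.9 M fragments, and a low value rests on few of them, as with the 9 fragments of NONMMUT025809.2 in model liver 1.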
